A study of Mus musculus with 6 samples.

Results

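The carriers described here take up bile acids, water-soluble vitamins, nucleosides, carnitine and a wide range of organic cations and anions. They were chosen by gene symbol alone, as every gene of the families Slc10a, Slc19a, Slc22a, Slc23a, Slc28a, Slc29a, Slc46a, Slc51, Slc52a and Slco that a probe set of the array names on its own, and they came to 64 of the 19938 genes measured. Small intestine of mouse embryos at E18.5, shortly before birth, was measured on 1 array per sample in 3 controls, of genotype wildtype by the labels, and in 3 knockouts, labelled E-cadherin cKO, in which the gene was removed conditionally. E-cadherin (Cdh1) joins neighbouring epithelial cells at their adherens junctions. Neither the promoter behind the deletion nor the deleted exons, the strain or whether each sample came from an embryo of its own is given in the sources used here. The p-values weigh each difference against the spread among the samples of a group, which may therefore be technical variation only. The question put to the carriers is which of them differ in level between the control and cKO samples.

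In the enterocyte, bile acids enter from the lumen through the sodium-dependent carrier Slc10a2, cross the cell bound to Fabp6 and leave through the heterodimer of Slc51a and Slc51b, chiefly in the ileum. The bile acid receptor Nr1h4 (FXR) senses them on the way and drives Fgf15, Nr0b2 and the Slc51 genes. Vitamins such as ascorbate, folate, thiamine and riboflavin each have carriers of their own, mostly in the upper small intestine, while the Slc22 and Slco families are polyspecific and are best known from liver, kidney and gut, where they handle drugs, conjugated steroids and carnitine.

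The upstream sequences of 3 bile acid carriers are shown first because their values for uptake and export differed in opposite directions, without passing the test, together with those of Slc46a3 and Slc22a5, which fell. They are bases before the transcription start that RefSeq lists on GRCm38.p6, read 5′ to 3′ on the gene's strand, which is the minus strand for all 5. Slc10a2 lies at chr8:5105288-5105537, Slc51a at chr16:32487880-32488129, Slc51b at chr9:65422774-65423023, Slc46a3 at chr5:147894862-147895065 and Slc22a5 at chr11:53891797-53891953. Bases downstream of a gene's outermost listed start were left out of the last 2. Capitals mark matches, on either strand, to 5 short motifs. These were AGATAA for factors such as Gata6, TTTATG for Cdx1 and Cdx2, CAAAGTC for the core of the Hnf4 site and AGGTCA for the hexamer of nuclear receptors. The last was TGANTCA, a loose form of the site of AP-1 (Fos and Jun), in which N is any base. With N left open, the AP-1 pattern reads the same on both strands. It is wider than the site itself, and its matches are TGATTCA in Slc10a2 and TGAGTCA in Slc51b.
Slc10a2: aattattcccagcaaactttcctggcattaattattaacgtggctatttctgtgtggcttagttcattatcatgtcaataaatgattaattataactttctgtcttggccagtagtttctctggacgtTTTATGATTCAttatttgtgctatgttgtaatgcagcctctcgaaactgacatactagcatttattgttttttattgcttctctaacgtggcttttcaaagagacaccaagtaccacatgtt
Slc51a: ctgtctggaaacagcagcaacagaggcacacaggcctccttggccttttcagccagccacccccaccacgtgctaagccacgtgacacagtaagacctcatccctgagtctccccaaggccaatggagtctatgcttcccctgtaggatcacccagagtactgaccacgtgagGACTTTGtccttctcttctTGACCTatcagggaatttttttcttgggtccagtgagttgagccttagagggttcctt
Slc51b: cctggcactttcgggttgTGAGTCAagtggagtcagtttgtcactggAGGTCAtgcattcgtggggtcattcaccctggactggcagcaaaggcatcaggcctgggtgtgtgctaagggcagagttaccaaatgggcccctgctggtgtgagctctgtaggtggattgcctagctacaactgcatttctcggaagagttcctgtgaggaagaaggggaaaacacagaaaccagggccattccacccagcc
Slc46a3: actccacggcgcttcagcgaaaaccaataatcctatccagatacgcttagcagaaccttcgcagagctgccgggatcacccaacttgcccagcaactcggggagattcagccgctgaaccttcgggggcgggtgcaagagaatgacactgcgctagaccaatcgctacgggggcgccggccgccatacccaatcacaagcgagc
Slc22a5: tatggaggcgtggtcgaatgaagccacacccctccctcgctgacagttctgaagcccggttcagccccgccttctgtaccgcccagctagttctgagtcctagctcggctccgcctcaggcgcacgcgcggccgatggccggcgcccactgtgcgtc

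In the Slc10a2 sequence the Cdx letters, 122 to 117 bases before the start, overlap the AP-1 letters (118 to 112). In Slc51a the Hnf4 letters lie 77 to 71 and the nuclear receptor letters 58 to 53 bases before the start, and in Slc51b the AP-1 letters lie 232 to 226 and the nuclear receptor letters 203 to 198 before it. None of the 5 motifs was found in the 250 bases before the Slc46a3 and Slc22a5 starts. Over 32851 listed windows of 250 bases, 9.99% held the Gata letters, 10.8% the Cdx, 3.84% the Hnf4, 14.02% the nuclear receptor and 6.75% the AP-1 letters. Among the 71 windows of the 56 carriers that the table holds, the same shares, in that order, were 8.45%, 11.3%, 5.63%, 15.5% and 4.23%. The sequences also differ in base composition. The 250 bases before the Slc22a5 start hold 30 CG pairs at 73.6% G and C, those of Slc46a3 20 pairs at 60.0%, and those of Slc10a2, Slc51a and Slc51b 4, 3 and 3 pairs at 34.4%, 53.2% and 54.8%, against medians of 6 pairs and 52.4% over all windows. A match is a run of letters and was not tested for binding.

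Values are log2 expression values as deposited, compared between groups only within a probe set, and each difference is cKO minus control. Cdh1 read 9.86, 9.82 and 10.15 in controls 1 to 3 and 9.70, 8.38 and 8.91 in cKO 1 to 3 (limma adjusted p = 0.088; exact permutation p = 0.1, the smallest possible here). All 3 cKO values lay below the controls, cKO 1 by the smallest margin, and whether the probes lie in the deleted part is not known. Receptor genes of smell and taste, 1231 in number, served as a measure of background: their 95th percentile on an array was its background level, which ranged from 5.79 to 6.36 and was lowest on cKO 2. Pancreatic genes set cKO 3 apart: the chymotrypsinogen gene Ctrb1 read 12.39 there and 5.62 to 7.03 on the other 5 arrays, and the mean of 5 pancreas genes was 9.72 against 5.60 to 6.28. The pancreas regulator Ptf1a was at background on every array. Results are therefore also given without cKO 3.

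The tissue's own markers also moved between the groups. Of 9 enterocyte genes 5 fell, and their mean was 11.18 to 11.63 in controls and 9.97 to 10.22 in cKO. All 7 smooth muscle and all 7 fibroblast genes rose (means of 10.30 to 10.61 against 11.28 to 11.43, and of 9.86 to 10.01 against 10.62 to 10.86), as did 5 of 7 macrophage genes (7.47 to 7.62 against 8.22 to 8.68). Of 7 blood vessel genes and 5 genes of enteric nerve and glia 0 were called (limma; 4 and 3 had an unadjusted p under 0.05). Of 8 general epithelial genes the 4 keratins rose and Epcam, Vil1, Cdh17 and Cldn7 did not pass. Of the 8 liver genes, Alb, Ahsg, Apoh and Tat were at background on every array, and Fgb and Cps1 fell (list means of 6.62 to 6.86 against 5.97 to 6.21). Cps1 was bright on every array, at 12.25, 12.29 and 12.51 in controls and 11.61, 10.96 and 11.27 in cKO. Which cells gave the Fgb and Cps1 signal was not tested, so their fall is not a measure of liver RNA. Serpina1c read 7.75, 7.55 and 6.25 in controls and 5.01, 6.45 and 5.50 in cKO, and Hpx 6.20 to 6.88 and 6.05 to 6.72. Both were above background on some arrays and did not pass. Of 6 kidney genes, Umod, Slc12a1, Slc34a1 and Kap were at background on every array, and Cubn, which enterocytes also make, fell. Aqp2 was above background on every array, at 6.96 to 7.21 in controls and 6.80 to 7.11 in cKO, and did not pass. The part of these shifts in the carriers' differences was not tested, and in whole tissue fewer cells of a type and less RNA per cell cannot be told apart.

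**Figure D1:**
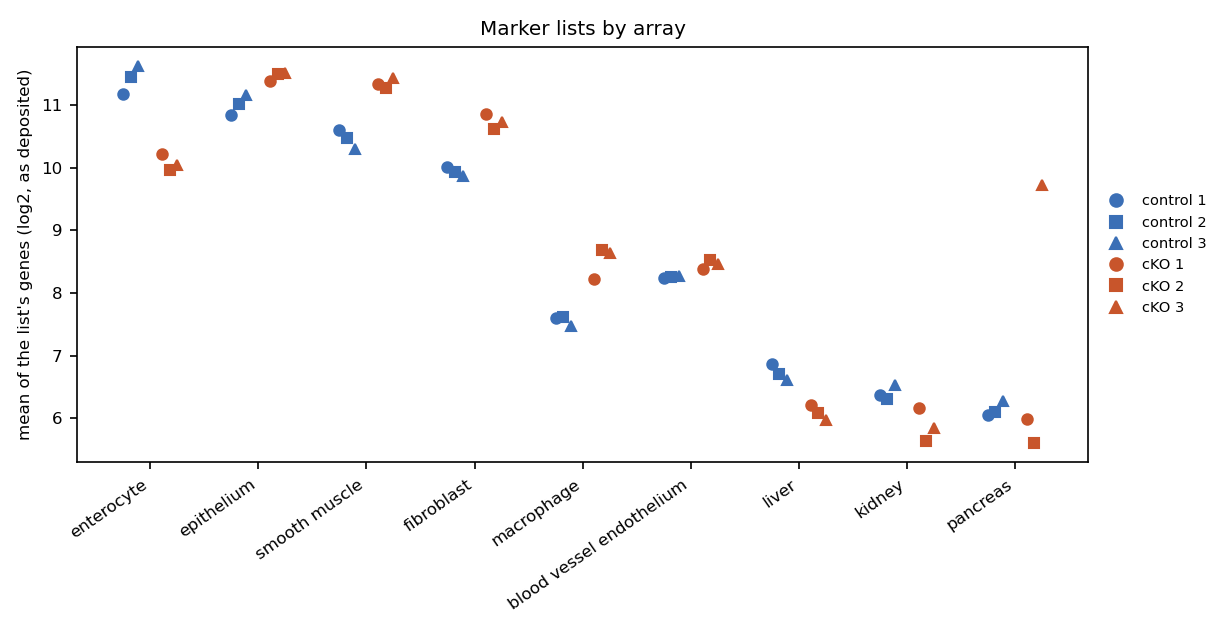
Mean log2 value of each marker list (y axis) on the 3 control and 3 cKO arrays, by list (x axis). The enterocyte list is lower on all 3 cKO arrays, the smooth muscle, fibroblast and macrophage lists are higher, and the pancreas list stands at 9.72 on cKO 3 alone.

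Of the 64 carriers, 6 fell and 2 rose in cKO at an adjusted p under 0.05 (limma, adjusted over all genes). That is 12.5% of the carriers, near the 14.2% of all genes that passed. The genes that fell were Slc23a1, Slc10a5, Slc46a3, Slc22a5, Slc22a21 and Slc19a1 (7.36% of all genes were called lower), and those that rose were Slc29a1 and Slco2b1 (6.81% called higher). The median difference of the carriers was -0.12 and that of all genes -0.09. For 20 carriers (31.2%) the 3 cKO values lay wholly apart from the 3 controls, 5 higher and 15 lower, as they did for 35.4% of all genes. Without cKO 3, 6 carriers (9.38%) were called, 5 of them among the 8, beside 7.61% of all genes under the same fit. Slc22a5, Slc19a1 and Slco2b1 were then not called, and Slc10a2 was.

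Many carriers had little signal to compare. Of the 64, 28 lay at or below background on all 6 arrays, 26 lay above it on all 6 and 10 on some. The 28 include carriers known from the liver (Slc10a1, Slco1b2, Slco1a1, Slco1a4) and 9 of the organic anion carriers of the Slc22 family. On cKO 2, the array with the lowest background level, 39 of the 64 carriers had their lowest cKO value. The median of all probe sets was also lowest there, at 6.17 against 6.44 to 6.50 on the other arrays, and the values were not rescaled. How many of all genes were lowest on cKO 2 was not counted. Of the 6 carriers that fell, 5 were lowest on cKO 3 and 1 on cKO 2.

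**Figure D2:**
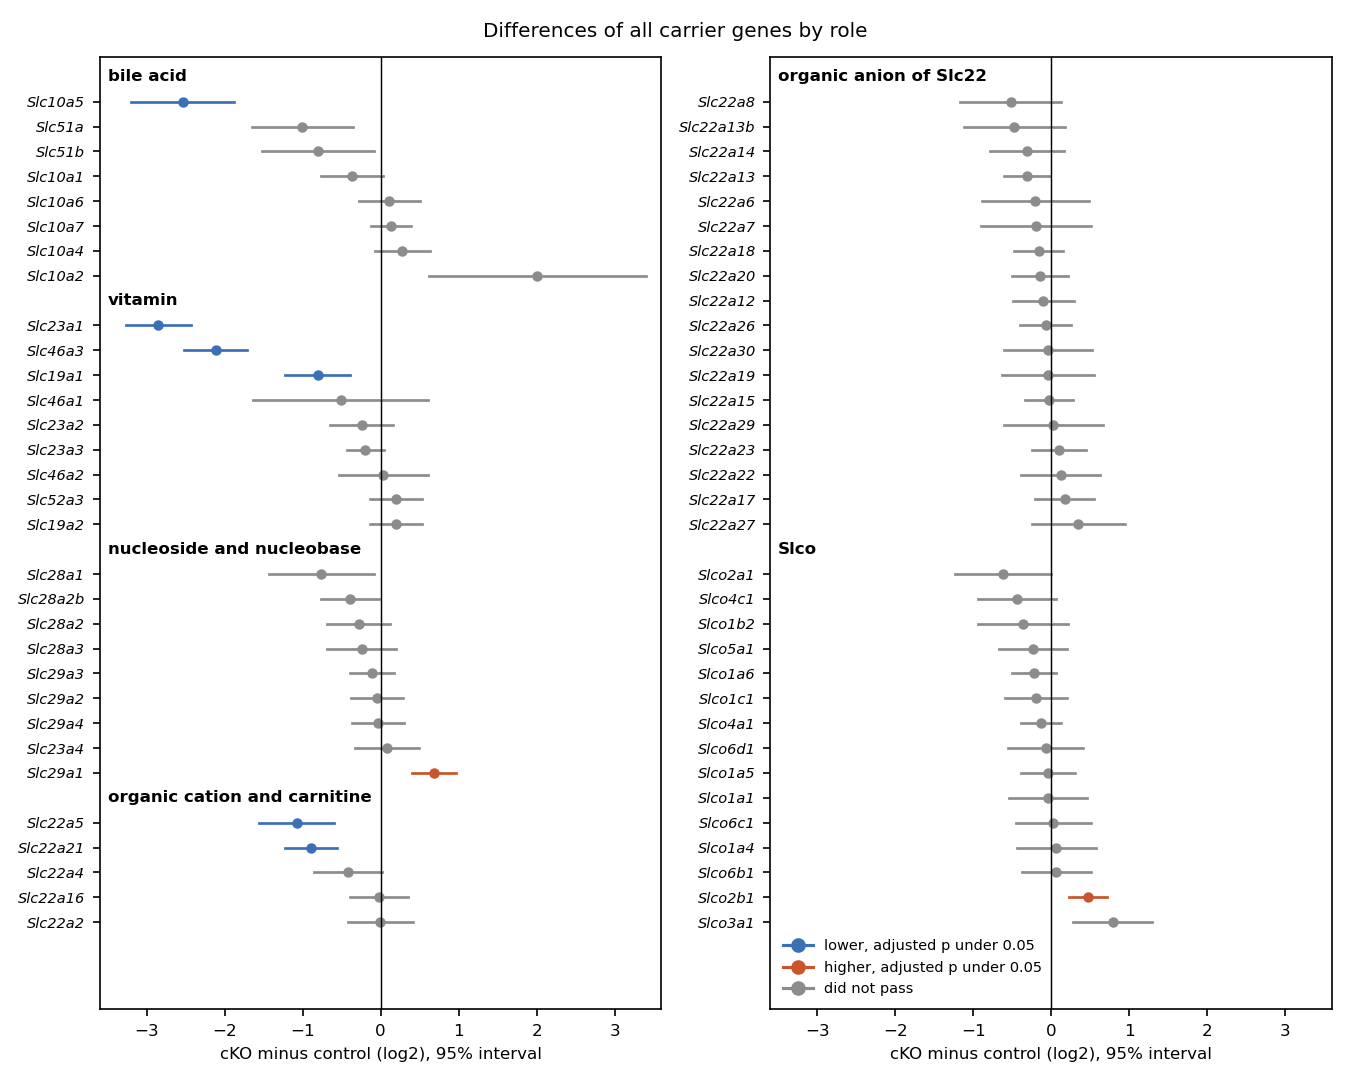
Difference between cKO and control (x axis, log2) with its 95% interval from limma for all 64 carriers, grouped by role. The 6 genes that fell include Slc23a1 at -2.85 and the 2 that rose reach 0.68, while most other intervals span 0.

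Of the 8 measured genes of the Slc10 and Slc51 families, 1 fell and 0 rose (limma; 4 had an unadjusted p under 0.05). That is 12.5%, beside 14.2% of all genes called. The gene that fell was Slc10a5, a member placed in the family by its likeness to the bile acid carriers and whose substrates are little known. Slc10a5 read 8.77, 8.62 and 9.13 in controls 1 to 3 and 6.93, 6.14 and 5.84 in cKO 1 to 3. The groups did not overlap, with the highest cKO value on cKO 1. It fell by 2.54 (SE 0.28, adjusted p = 0.0021), with cKO 3 at background, and with each array at no less than its background level the difference was -2.46 (5.48-fold). The call held in each of the 6 fits that left out an array (highest adjusted p = 0.015).

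The exporter pair was lower on every cKO array, without passing the threshold. Slc51a (OSTα) read 10.41, 10.53 and 10.93 in controls and 9.96, 9.91 and 8.99 in cKO, and its partner Slc51b (OSTβ) 8.94, 9.11 and 9.70 in controls and 8.62, 8.89 and 7.83 in cKO. The lowest value of both genes was on cKO 3, and their highest on control 3. The differences were -1.0 (SE 0.28, 95% interval -1.65 to -0.35, adjusted p = 0.053) and -0.80 (SE 0.31, -1.52 to -0.09, adjusted p = 0.13). Without cKO 3 the difference of Slc51a was -0.69 (adjusted p = 0.078) and that of Slc51b -0.50 (adjusted p = 0.27).

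The luminal uptake carrier Slc10a2 went the other way. It read 4.75, 4.14 and 4.17 in controls, all at background, and 5.97, 7.85 and 5.27 in cKO. Only cKO 2 stood above its background level, and cKO 1 and cKO 3, though above every control, stayed below theirs. The measured difference was 2.01 (SE 0.59, 95% interval 0.62 to 3.40, adjusted p = 0.066), but against the background level it is only known to be at least 1.06-fold. With cKO 3 left out it was 2.56 (adjusted p = 0.035). With cKO 2 left out it was 1.27 (adjusted p = 0.028), but all 5 remaining values then lay at or below background. Slc10a1, the hepatocyte uptake carrier, lay at background throughout (5.23 to 5.66 in controls and 4.90 to 5.36 in cKO). Slc10a6, which carries sulfated steroids, was at background on every array too, and Slc10a4 and Slc10a7, members with no established bile acid transport, differed by 0.28 and 0.13 without passing (adjusted p = 0.28 and 0.46).

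The genes that bind, export and sense bile acids gave a mixed picture: of 14 measured, 5 fell and 1 rose, with a median of -0.44. Of all genes, 7.36% were called lower and 6.81% higher. This list, like the gene lists below, was chosen with earlier results of these data known, and its counts are not a test. Nr1h4, the bile acid receptor, read 9.96, 9.79 and 9.80 in controls and 8.76, 8.29 and 7.46 in cKO and fell by 1.68 (SE 0.30, adjusted p = 0.011). Nr0b2 (SHP), a corepressor that Nr1h4 induces, read 6.88, 7.05 and 8.49 in controls and was at background on all 3 cKO arrays (4.66, 4.24 and 5.82), at least 2.69-fold lower (adjusted p = 0.018, and 0.050 without cKO 1). Nr5a2 (LRH-1), a partner of Nr0b2 in the control of bile acid synthesis, fell by 0.84 (adjusted p = 0.011, and 0.051 without control 3). The xenobiotic receptor Nr1i2 (PXR) fell by 0.85 (adjusted p = 0.035). Abcb11, the bile salt export pump, read 6.19, 7.83 and 9.10 in controls and was at background on all cKO arrays, at least 3.17-fold lower (adjusted p = 0.031). Of the 6 fits that left out an array, only the one without control 1 kept these 2 calls (highest adjusted p = 0.103 for each).

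Abcc3, a basolateral exporter of conjugated bile acids, was the member that rose. Its controls lay at background (5.97, 5.91 and 6.21) and its cKO values at 6.80, 7.04 and 6.86, a difference of 0.87 (SE 0.13, adjusted p = 0.0059), or at least 1.54-fold. The following 3 genes did not pass and were chosen after their values were seen. Fabp6, the ileal bile acid binding protein, read 5.33, 4.59 and 5.61 in controls and 8.06, 9.07 and 4.35 in cKO (adjusted p = 0.28). It was high on cKO 1 and cKO 2 and at background on cKO 3 and on all controls, and cKO 2, which had the highest Fabp6, also had the highest Slc10a2. Without cKO 3 its difference went from 1.98 to 3.39 and passed (adjusted p = 0.0065). Fgf15, the ileal hormone that Nr1h4 induces, ran from 10.40 to 10.65 in controls and from 9.69 to 10.30 in cKO (difference -0.45, adjusted p = 0.14). Abcc2, an apical exporter of conjugates, read 10.42, 10.15 and 10.61 in controls and 9.86, 9.54 and 8.28 in cKO (adjusted p = 0.089).

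**Figure D3:**
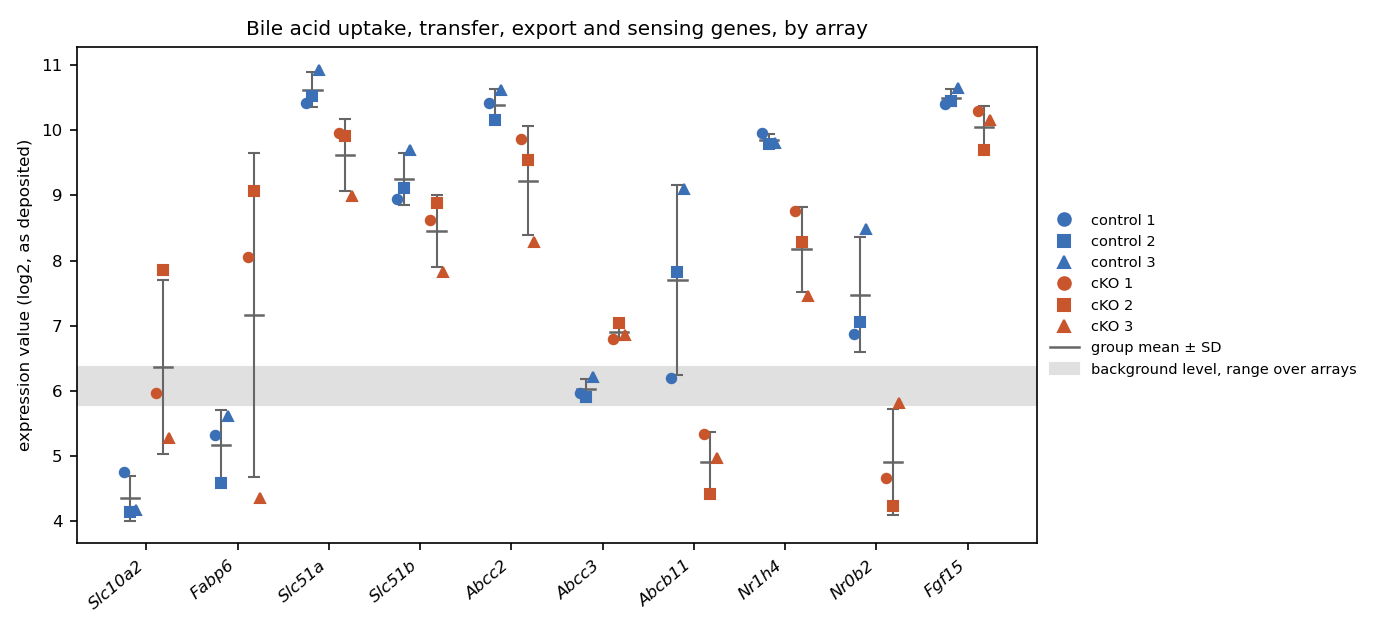
Log2 values of 10 genes of bile acid uptake, binding, export and sensing on each array (points), with group mean and SD (lines) and the range of the background level (grey band). Slc10a2 and Fabp6 stand above the band on 1 and 2 cKO arrays, while Slc51a, Slc51b, Nr1h4 and Nr0b2 are lower on all 3.

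The vitamin group held 9 measured genes, those of the Slc19, Slc46 and Slc52 families and Slc23a1 to Slc23a3. It was set by family, and not every member is known to carry a vitamin. Slc23a3 is an orphan, and Slc46a3 was included as a relative of the folate carrier. Of the 9, 3 fell and 0 rose (limma, and the same 3 had an unadjusted p under 0.05). The called share of 33.3%, beside 14.2% of all genes, rests on few genes and was not tested. The ascorbate carrier Slc23a1, of the apical membrane, was among the 3 that fell. It read 8.62, 8.82 and 8.67 in controls and 5.84, 6.19 and 5.54 in cKO. The groups lay far apart, and cKO 1 and cKO 3 were at background. The difference of -2.85 (SE 0.18, adjusted p = 0.000555), was called with any array left out. Its size rests on cKO values not above background: with each array at no less than its background level it was -2.53 (5.76-fold). Slc23a2, the ascorbate carrier found in most cell types, read 9.45, 9.42 and 9.55 in controls and 9.46, 8.86 and 9.38 in cKO. Its groups overlapped, with a difference of -0.24 (95% interval -0.64 to 0.16, adjusted p = 0.41). The third family member, Slc23a3, was at background on all arrays.

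Slc46a3, a lysosomal membrane relative of the folate carrier, read 10.89, 10.91 and 11.29 in controls and 9.13, 8.96 and 8.66 in cKO. The groups lay far apart and well above background, and the difference of -2.11 (SE 0.17, adjusted p = 0.000784), or 4.33-fold, held with any array left out (highest adjusted p = 0.0072). The proton-coupled folate carrier Slc46a1, the main route of folate from the lumen, could not be resolved: it read 7.01, 7.71 and 8.86 in controls and 6.93, 7.09 and 8.02 in cKO. Both groups spread widely, with control 3 and cKO 3 highest, and the interval of the difference ran from -1.64 to 0.61 (adjusted p = 0.52). The reduced folate carrier Slc19a1 read 8.91, 9.15 and 9.54 in controls and 8.39, 8.26 and 8.53 in cKO and fell by 0.81 (SE 0.18, adjusted p = 0.024). This call was lost without control 2, control 3 or any of the cKO arrays (adjusted p = 0.053 to 0.082). A second, dimmer probe set of the gene differed by -0.18. It lay below background on every array but cKO 3, where a fall could not be seen in any case, and so does not bear on the call.

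Carriers of thiamine and riboflavin did not pass. Slc19a2, a thiamine carrier, read 6.88 to 7.13 in controls and 6.96 to 7.35 in cKO, and Slc52a3, the apical riboflavin carrier, 7.33, 7.26 and 7.59 in controls and 7.65, 7.71 and 7.41 in cKO. The groups overlapped for both, with differences of 0.20 (95% intervals -0.14 to 0.54 and -0.13 to 0.53, adjusted p = 0.41 and 0.40). Slc46a2 was at background throughout. Slc19a3 and Slc52a2 were not analysed here.

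Of 20 measured genes whose products bind, take up or process vitamins, 9 fell and 1 rose, beside 7.36% and 6.81% of all genes. The median of the 20 was -0.37. The folate receptor gene Folr1 read 11.20, 11.21 and 11.51 in controls and 8.79, 8.96 and 6.98 in cKO, a fall of 3.06 (SE 0.48, adjusted p = 0.0069). Its lowest value was again on cKO 3. Among genes of vitamin B12 handling, grouped after their values were seen, Cubn, Amn, Tcn2 and Abcd4 fell, while Cd320 (-0.07), Lmbrd1 (-0.40) and Mmachc (0.09) did not pass. Lrp2, of the same vitamin list, went the other way without passing (0.86, adjusted p = 0.11). It read 7.01, 6.39 and 7.19 in controls and 7.94, 8.10 and 7.12 in cKO. Cubn and Amn, the subunits of the receptor for B12 bound to intrinsic factor, differed by -2.23 and -1.62 (adjusted p = 0.0056 and 0.0016). Tcn2, the carrier that takes B12 into blood, differed by -1.36 and Abcd4, which releases it from the lysosome, by -0.90 (adjusted p = 0.0025 and 0.0062). Slc5a6, the biotin and pantothenate carrier, differed by -0.91, and Btd, which recycles biotin, by -0.92 (adjusted p = 0.0056 and 0.0051). These 7 genes were called with any array left out. Rfk and Pdxk, the riboflavin and pyridoxal kinase genes, differed by -0.85 and -0.67 and lost the call without 4 and 5 of the 6 arrays in turn (highest adjusted p = 0.091 and 0.14). The gene that rose was Slc2a1, a glucose carrier that also moves dehydroascorbate, at 1.21 (SE 0.20, adjusted p = 0.0079).

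**Figure D4:**
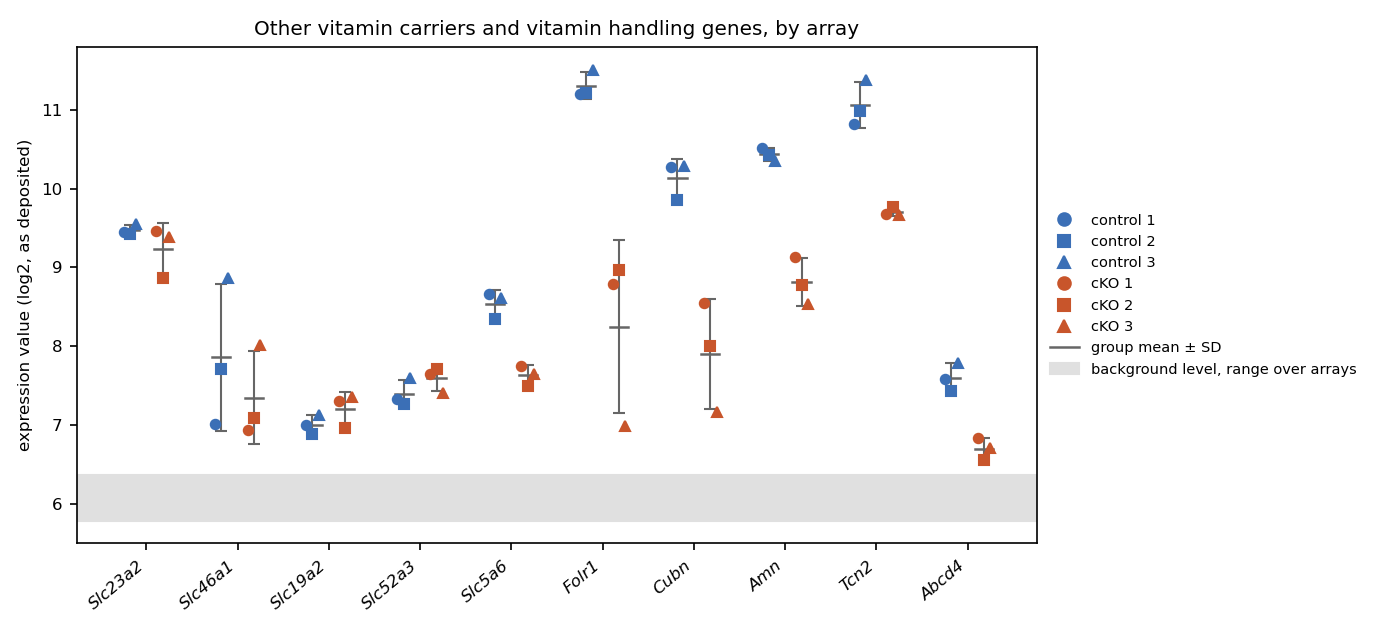
Log2 values on each array (points), with group mean and SD (lines), for 4 vitamin carriers and 6 genes of vitamin uptake and processing, beside the range of the background level (grey band). The groups overlap for Slc23a2, Slc46a1, Slc19a2 and Slc52a3 and lie apart for Slc5a6, Folr1, Cubn, Amn, Tcn2 and Abcd4.

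Of the 5 carriers of organic cations and carnitine measured, 2 carnitine carriers fell and the other members were at background on all arrays. In so small a group the called share of 40%, beside 14.2% of all genes, was not tested. Slc22a5 (OCTN2), the high-affinity carnitine carrier, read 8.76, 8.87 and 9.44 in controls and 8.18, 7.85 and 7.81 in cKO. The difference was -1.08 (SE 0.20, adjusted p = 0.014), or 2.11-fold, with all cKO values below the controls, and missed the threshold without cKO 3 (-1.01, adjusted p = 0.053). Slc22a21 (OCTN3), a second carnitine carrier of rodents, read 7.65, 7.74 and 8.11 in controls and 6.94, 6.96 and 6.92 in cKO. Its 3 cKO values lay close together and below every control, and the difference of -0.89 (SE 0.14, adjusted p = 0.0073) was called with any array left out. The relative Slc22a4 (OCTN1), which carries ergothioneine, was at background on all arrays (6.03, 6.03 and 6.25 in controls, and 5.90, 5.29 and 5.88 in cKO; difference -0.41, adjusted p = 0.19). Slc22a2, the renal organic cation carrier, read 5.54 to 5.82 in controls and 5.29 to 5.88 in cKO, and Slc22a16, a carnitine carrier of the testis, 5.34 to 5.77 and 5.36 to 5.75.

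Neighbouring genes are common among the carriers. In the RefSeq order of coding genes, 22 of the 64 stood in 9 runs of 2 to 4 adjacent members, of which the run of Slc22a5, Slc22a21 and Slc22a4 held 2 called genes and the other 8 runs held 0. Members of a run are close relatives, and whether their probes share hybridisation was not tested.

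Of 9 nucleoside and nucleobase carriers 1 was called, or 11.1%, beside 14.2% of all genes. Slc28a1 and Slc28a2b did not pass, with an unadjusted p of 0.031 and 0.042 (limma). Slc29a1 (ENT1), the equilibrative carrier of the plasma membrane, read 7.95, 8.17 and 7.92 in controls and 8.69, 8.61 and 8.78 in cKO. The groups lay apart and the gene rose by 0.68 (SE 0.12, adjusted p = 0.011), or 1.60-fold, with the call held when any array was left out (highest adjusted p = 0.049). The other equilibrative carriers differed little: Slc29a2 by -0.05 (95% interval -0.39 to 0.29), Slc29a3, of the lysosome, by -0.11 (-0.39 to 0.18) and Slc29a4, a monoamine carrier, by -0.04 (-0.37 to 0.30), with the sign of Slc29a2 and Slc29a4 turning under quantile normalization and median centring.

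The concentrative, sodium-driven carriers were not called. Slc28a1, for pyrimidine nucleosides, read 6.93, 6.96 and 6.89 in controls and 6.72, 5.48 and 6.30 in cKO (difference -0.76, adjusted p = 0.13). All cKO values lay lower, but by very unequal amounts, with cKO 2 at background, and of the 6 fits that left out an array only the one without cKO 1 called it (-1.04, adjusted p = 0.039). Without cKO 2 the difference was -0.42 (adjusted p = 0.12). Slc28a2, for purine nucleosides, read 9.52, 9.48 and 9.67 in controls and 8.97, 9.25 and 9.61 in cKO and overlapped (adjusted p = 0.34). Its neighbouring copy Slc28a2b read 9.15, 9.07 and 9.43 in controls and 8.63, 8.78 and 9.07 in cKO, so that the groups met at 9.07 (adjusted p = 0.16). Slc28a3 was at background, and Slc23a4, a nucleobase carrier, differed by 0.08 (adjusted p = 0.79).

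Of 16 enzymes that use nucleosides and bases, 3 fell and 2 rose, beside 7.36% and 6.81% of all genes. The kinase gene Uck2, which salvages uridine and cytidine, rose by 1.35 (SE 0.16, adjusted p = 0.0024), and Adk, the adenosine kinase gene, fell by 0.80 (SE 0.13, adjusted p = 0.0068); both calls held with any array left out. Ada, adenosine deaminase, went from background in controls to 7.77, 8.60 and 10.55 in cKO, at least 6.48-fold (adjusted p = 0.017, and 0.069 and 0.070 without controls 2 and 3). Pnp and Gda, which break down purines, differed by -0.72 and -1.56 and lost the call without 4 and 5 of the arrays in turn (highest adjusted p = 0.096 and 0.108).

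**Figure D5:**
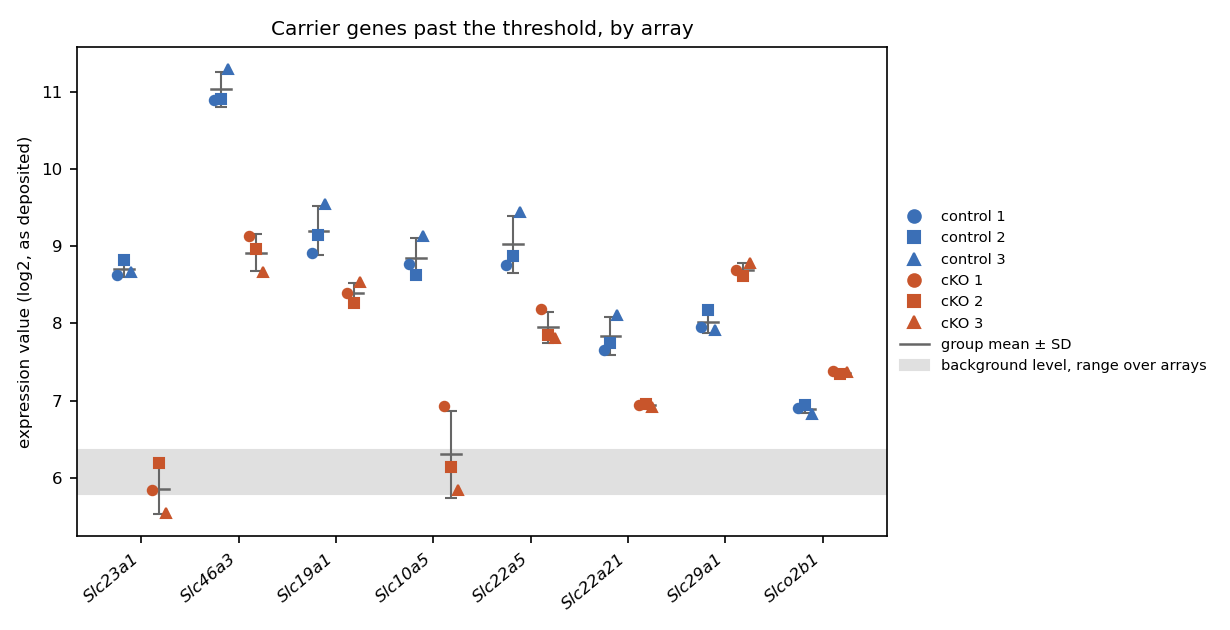
Log2 values of the 8 carriers past the threshold on each array (points), with group mean and SD (lines) and the range of the background level (grey band). The cKO points lie below all controls for Slc23a1, Slc46a3, Slc19a1, Slc10a5, Slc22a5 and Slc22a21 and above them for Slc29a1 and Slco2b1.

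Of the 18 organic anion and orphan carriers of the Slc22 family 0 passed (limma; 1 had an unadjusted p under 0.05), and 9 lay at background on all arrays. Their differences ran from -0.52 to 0.35. The renal carriers Slc22a6 (OAT1) and Slc22a8 (OAT3) read 5.92 to 6.28 and 6.32 to 6.63 in controls and 5.16 to 6.27 and 5.24 to 6.24 in cKO, with the lowest value of both on cKO 2. Slc22a18, an imprinted member, read 7.93, 7.92 and 8.24 in controls and 7.90, 7.74 and 7.97 in cKO, and its groups overlapped (difference -0.16, 95% interval -0.48 to 0.16). Slc22a17 and Slc22a23, further members above background on every array, differed by 0.17 and 0.10 (adjusted p = 0.52 and 0.69).

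The Slco family, which carries organic anions without sodium, had 15 measured genes. Of these 1 rose (6.67%, beside 14.2% of all genes called) and 11 were at background on all arrays. Slco2b1 (OATP2B1), a broad carrier of steroid sulfates, read 6.91, 6.94 and 6.83 in controls and 7.38, 7.34 and 7.37 in cKO. Both groups were tight and lay apart, but the rise of 0.47 (SE 0.10, adjusted p = 0.023), or 1.39-fold, was called only without cKO 2 among the 6 fits that left out an array (adjusted p = 0.050 to 0.090 in the other 5). Slco3a1, a widely expressed member that carries prostaglandins, read 6.87, 7.07 and 7.06 in controls and 7.28, 8.06 and 8.02 in cKO. It was higher on every cKO array, chiefly on cKO 2 and cKO 3, and just missed the threshold (0.79, SE 0.22, adjusted p = 0.053), which it passed without cKO 1 (1.04, adjusted p = 0.0061). Slco2a1, the prostaglandin uptake carrier, read 8.84, 9.13 and 9.82 in controls and 8.64, 8.92 and 8.38 in cKO and overlapped (-0.62, adjusted p = 0.17). Without control 3, its highest array, the difference was -0.34 (adjusted p = 0.39). Slco4a1, a thyroid hormone carrier, lay near background (5.89 to 6.08 in controls and 5.78 to 5.86 in cKO), and Slco1b2 and Slco1a4, known from liver and the blood-brain barrier, lay below it.

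Efflux and scaffold genes that work beside these carriers moved in both directions, with 5 lower and 2 higher of 12 measured and a median of -0.49. The shares of all genes called lower and higher were 7.36% and 6.81%. Pdzk1, an apical scaffold that binds the tails of carriers such as Slc22a5, read 10.01, 10.17 and 10.25 in controls and 8.51, 8.59 and 7.74 in cKO, a fall of 1.86 (SE 0.23, adjusted p = 0.0029). Pdzk1ip1, which encodes a membrane protein that binds it, fell by 2.17 (SE 0.26, adjusted p = 0.0025). The exporter gene Abcc1 rose by 0.96 (SE 0.11, adjusted p = 0.0023), and these 3 calls held with any array left out. The scaffold gene Slc9a3r1 differed by -0.63, the sodium-proton exchanger gene Slc9a3 by -1.66, the organic cation and proton antiporter gene Slc47a1 by -1.04 and Abcb1a (P-glycoprotein) by 0.91. The calls of these last 4 were lost without 3 to 5 of the arrays in turn (highest adjusted p = 0.070, 0.112, 0.091 and 0.127).

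Among 12 measured transcription factors that act on carrier genes in gut or liver, 5 fell and 1 rose, with a median of -0.45. Ppara, the fatty acid receptor that induces Slc22a5, read 7.69, 7.62 and 7.91 in controls and 6.85, 6.31 and 6.78 in cKO, a fall of 1.09 (SE 0.17, adjusted p = 0.0068). Gata6 differed by -1.09 and Cdx2 by -0.79 (adjusted p = 0.012 and 0.0073), and these 3 calls held with any array left out. Hnf4a differed by -0.88 (adjusted p = 0.018, and 0.065 without cKO 3). Cdx1 fell by 0.60 but was no longer called when any control or cKO 3 was omitted (highest adjusted p = 0.085). Foxa3 rose by 0.82, and omitting control 2, control 3 or cKO 3 ended that call (highest adjusted p = 0.070). Over the 5 lists of binding, processing, efflux and regulatory genes, 27 of 74 genes fell and 7 rose, beside 7.36% and 6.81% of all genes, and 18 of these 34 were called in all 6 fits that left out an array. The total was 21 without control 2 and 21 without control 3. The lists were chosen with earlier results of these data known, so their counts beside the shares of all genes are a description and not a test.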

How the data were processed

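Biotin-labelled total RNA was hybridised to Affymetrix Mouse Gene 1.0 arrays and analysed in dChip, per the labels' protocols and the series design text. Background correction and normalization: not given in the sources used here. The authors deposited a single value for each of 35512 probe sets on each array, from 0 to 14.07, read here as log2 from that range and used unchanged. Array data carry no read depth, and 3 arrays a group limit the precision. Of the probe sets, 21789 had 1 symbol in the platform annotation, 1621 several and 12102 none listed. Symbols were updated by gene identifier through RefSeq (GRCm38.p6, 21698 probe sets), and the brightest probe set per gene was kept. All genes were fitted with limma 3.58.1 in R 4.3.3 (lmFit, eBayes, two-sided, no covariate) with Benjamini-Hochberg adjustment over 19938 genes and a threshold of 0.05. The procedure was tested on simulated data. A gene was called at background in a group if all its arrays lay at or below the 95th percentile of receptor genes, and its fold was then a bound ("at least") against that level, taken on each array of that group, with the other group at its values as deposited. Named genes are all carriers past the threshold, a set of well-known carriers and the listed partner genes past the threshold; other carriers named to complete a family were chosen after their values were seen. Members, lists and rules were chosen with earlier results of these data known. Alternatives were 2 scalings, a dim-gene filter, probe set means, array weights, an intensity trend, a replicate block and each array left out.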

Additional observations from a re-analysis of the deposited data

How the results depend on the processing

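In all, 13 alternatives were run. With array weights 17 carriers were called (5 higher and 12 lower), or 26.6%, beside 29.3% of all genes (5833). All 8 carriers called otherwise were among the 17, and Cdh1 was called too (-0.89). The intensity trend called 11 carriers, 4 higher and 7 lower (17.2%, beside 17.3% of all genes), and called Cdh1 at -0.95 (adjusted p = 0.048). Quantile normalization, median centring, the dim-gene filter, probe set means and the replicate block gave 9, 9, 10 (of 37 still tested), 7 and 9 called carriers, of which 8, 8, 8, 7 and 7 were among the 8. In that order, 14.1%, 14.1%, 27%, 10.9% and 14.1% of the carriers tested were called. The shares of all genes tested were 16.3%, 12.9%, 22.9%, 14% and 11.1%. The replicate numbers pair the samples only by name (correlations of deviations between same-numbered arrays of -0.08, 0.13 and 0.14); with them as a block 2212 of all genes were called, Slco2b1 was not, and Slc10a2 and Slco3a1 were. With 1 array left out, 6 to 8 carriers were called (1 to 3 higher and 4 to 6 lower), 1226 to 2713 of all genes and 21 to 31 partner genes, and Cdh1 differed by -1.30 to -0.64; it passed only without cKO 1. The lowest of the all-gene counts, 1226, 1505 and 1517, came without control 2, control 3 and cKO 3. Slc23a1, Slc10a5, Slc46a3, Slc22a21 and Slc29a1 were called under all 13. Slc10a2, too dim for the filter, was called under 5 of 12, Slco3a1 under 7, Slc51a under 3 and Slc28a1 under 2. Only array weights called Slc51b, Slco2a1, Slc19a2, Slc22a13 and Slco4c1. The cause was not tested. Signs were followed for 30 carriers only, the 8 called and a set of well-known ones. Among these, signs of carriers that did not pass turned as follows, and turns of the remaining carriers are not given. Under quantile normalization, median centring and array weights Slc22a2 was 0.14, 0.093 and 0.21, Slc29a2 0.016, 0.047 and 0.033, and Slc29a4 0.049, 0.060 and 0.084. Slc46a1 was 0.055 with array weights. Over left-out arrays Slc22a2 ran from -0.12 to 0.18, Slc29a2 from -0.13 to 0.085, Slc29a4 from -0.11 to 0.07 and Slco1a4 from -0.14 to 0.24. Dim probe sets limit the rest: 28 carriers had no array above background.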
